A study of Mus musculus with 2 samples.

Results

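The cells described here are bone marrow cells with MHC class II transcripts or the lectin transcript Siglech, taken from a single-cell RNA-seq comparison of Phf6 knockout (KO) and wild-type (WT) mouse haematopoiesis. A cell was selected when it had at least 500 detected genes and at most 10% mitochondrial UMIs, held at least 10 UMIs of Cd74, H2-Aa, H2-Ab1 and H2-Eb1 together or at least 3 UMIs of Siglech, and in either case had no Cd79a UMI and fewer than 50 Jchain UMIs. The rule selected 628 of 9632 filtered cells, 468 of 4930 in the KO library and 160 of 4702 in the WT library. Those 7 genes chose the cells, so their values are descriptions.

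Phf6 encodes a chromatin-associated zinc finger protein of the X chromosome that is mutated in human leukaemias. The KO group was Phf6 KO bone marrow given a vector with the RUNX1-S291fs mutation and GFP, and the WT group was WT bone marrow given the same vector, so both groups carried the RUNX1 mutant. GFP+ cells of each were put into recipient mice, and 8 weeks later GFP+ lineage-negative marrow cells were sorted and sequenced, with 1 library per genotype. The labels do not give the number of mice behind a library, the antibodies of the lineage gate or the deleted part of Phf6. With 1 library per genotype there is no replicate error and no test of a genotype difference: intervals below are 95% intervals that cover counting error only, and every KO to WT difference is a difference between these libraries.

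MHC class II molecules present peptides from endocytosed material to CD4 T cells. H2-Aa with H2-Ab1, and H2-Eb1 with an alpha partner, encode the peptide-binding chains, and Cd74 encodes the invariant chain that guides them to endosomes. Conventional dendritic cells (DC) of type 1 need BATF3 and IRF8 and cross-present antigen to CD8 T cells, type 2 cells are marked by SIRPA and lectins, and plasmacytoid DC, marked in mouse by Siglech, depend on TCF4 and secrete type I interferon. Class II is also carried by B cells, by macrophages and, at low level, by early progenitors.

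The libraries held 5260 (KO) and 5287 (WT) barcodes with 120408100 and 131667969 UMIs. The selected cells had a median of 19168 UMIs in KO and 19979 UMIs in WT, against 22373 UMIs in KO and 25348 UMIs in WT for the other filtered cells, and their summed depth was 10447149 UMIs in KO and 3834274 UMIs in WT. Of the barcodes, 10 sequences occurred in both libraries, and 2 of these were selected in KO and 0 in WT. A doublet score marked 36 KO cells (7.69%) and 16 WT cells (10.0%) of the selection as likely doublets, which were kept because the rule keeps them. Over all filtered cells the shares of likely doublets were lower, at 4.20% in KO and 4.23% in WT. Phf6 stood at 24.9 CPM (counts per 1000000 UMIs) in the selected KO cells and 52.4 CPM in the selected WT cells, a log2 ratio of -1.07 (-1.35 to -0.80). With the deleted part not given, this 3′ tag count cannot show whether the KO transcript was functional.

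The selection took 9.49% (8.69 to 10.3) of filtered KO cells and 3.40% (2.90 to 3.96) of filtered WT cells, a difference of 6.09 percentage points (5.13 to 7.07). The difference lay mostly in cells just above the minimum. KO had 236 cells with 10 to 19 class II UMIs against 64 in WT, 138 against 41 with 20 to 49, 46 against 20 with 50 to under 200, and 39 against 28 with 200 or more. The KO share was 3.52 times the WT share in the lowest of these bands, then 3.21, 2.19 and 1.33 times in the successive bands, and for 200 or more UMIs the difference of 0.196 points had an interval (-0.143 to 0.537) that held 0. These bands were set after the values were seen. Requiring no Cd79b UMI as well left 272 KO and 103 WT cells and a difference of 3.33 points (2.57 to 4.10).

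**Figure D1:**
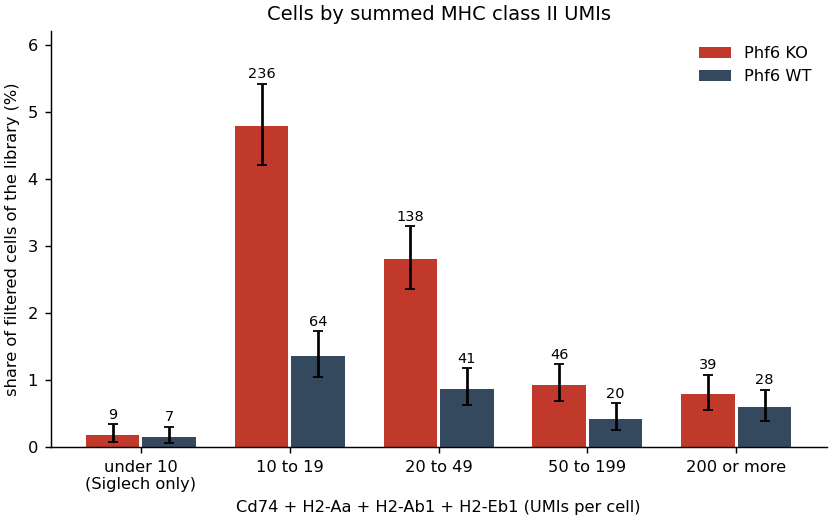
Share of filtered cells (%, y axis) in each band of summed Cd74, H2-Aa, H2-Ab1 and H2-Eb1 UMIs (x axis), KO bars left of WT bars, with 95% Clopper-Pearson intervals and cell counts above. KO exceeds WT by 3.52 times at 10 to 19 UMIs and by 1.33 times at 200 or more, where the intervals overlap.

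The name dendritic cell fitted only a minority of the selection. Only 9 KO and 7 WT cells entered through Siglech alone and 13 KO and 4 WT cells met both minimums, while 446 KO and 149 WT cells entered through class II alone. The median cell held 19 class II UMIs in KO and 22 in WT, and 315 of 468 KO cells and 107 of 160 WT cells had a UMI of all 4 class II genes. Cd7, a lymphoid and plasmacytoid DC surface gene in mouse, had 13.3 CPM in KO and 17.2 CPM in WT. After each cell was thinned to 5000 UMIs, the pan-DC transcription factor Zbtb46 was found in 2.39% of KO and 9.09% of WT selected cells, against 3.28% of KO and 2.29% of WT cells of a megakaryocyte gate (Pf4 at 10 UMIs or more) that served as the background. Unthinned, the Zbtb46 shares were 7.69% and 19.4% of selected KO and WT cells and 8.47% and 7.81% of KO and WT gate cells, whose median depths were 21948 UMIs in KO and 24713 UMIs in WT.

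The stem cell factor receptor Kit was instead found in 46.6% of selected KO cells and 37.0% of selected WT cells after thinning (70.7% and 63.8% unthinned), against 13.3% and 18.0% of KO and WT gate cells. Cd34, a progenitor surface gene, was found in 57.5% of KO and 45.5% of WT selected cells after thinning (75.4% and 65.6% unthinned), beside 49.1% and 47.0% of KO and WT gate cells, so its share says little alone. The summed class II level of 3050 CPM in selected KO cells and 6056 CPM in selected WT cells was set by the rule. The gate, without selected cells, had 36.7 CPM in KO and 32.8 CPM in WT, and all other filtered cells had 89.4 CPM in KO and 118 CPM in WT. The values of cells around the minimum are given without a test. Cd34 had 321 CPM in 103 KO cells with 8 or 9 class II UMIs and 323 CPM in 84 KO cells with 10 or 11. In WT, Cd34 had 249 CPM in 41 cells with 8 or 9 UMIs and 328 CPM in 22 cells with 10 or 11.

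Progenitor genes and presentation genes ran in opposite directions over the class II bands in both libraries. Kit went through 211, 178, 76.5 and 59.1 CPM in KO and 166, 157, 52.9 and 73.3 CPM in WT over the 4 bands from 10 to 19 up to 200 or more. Hlf, a stem cell transcription factor, went through 255, 258, 156 and 23.1 CPM in KO and 215, 136, 57.0 and 0 CPM in WT. In the band of 200 or more, the WT cells gave no Hlf UMI, and 3 UMIs there would be 4.4 CPM. Ciita, the coactivator required for class II transcription, went the other way, with 7.46, 5.53, 26.2 and 156 CPM in KO and 3.64, 4.73, 16.3 and 175 CPM in WT.

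**Figure D2:**
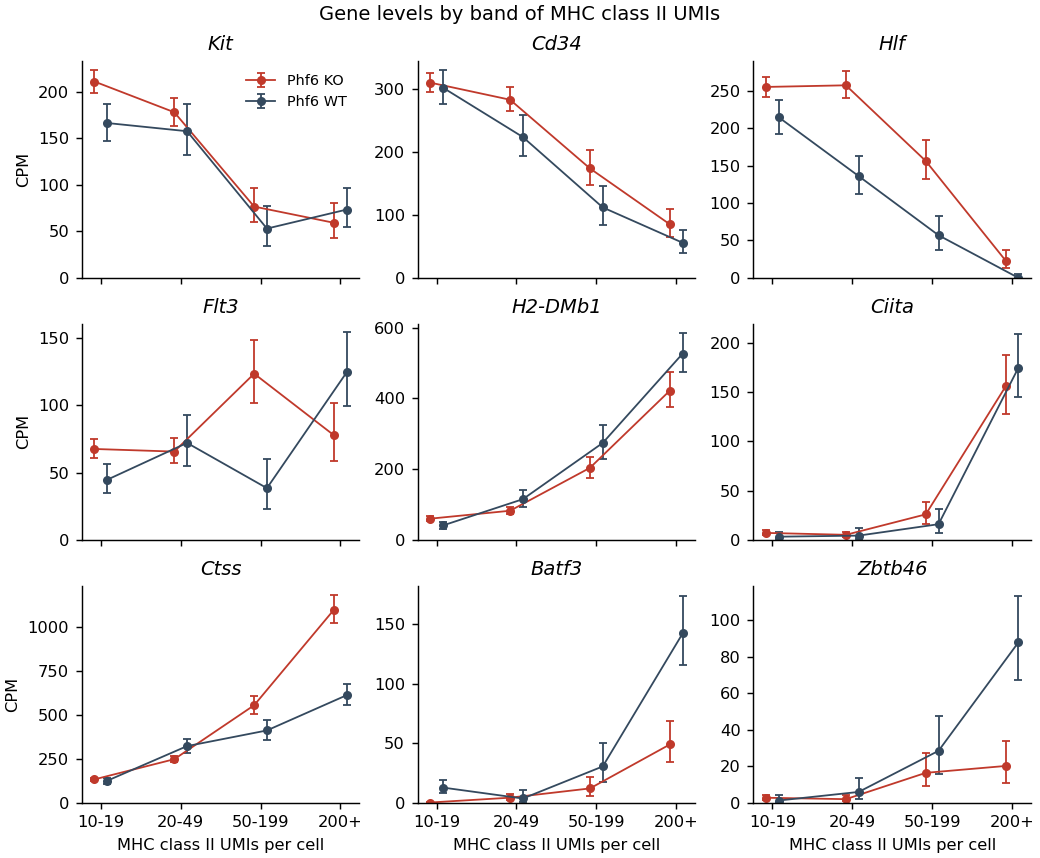
Level (CPM, y axes) of 9 genes in 4 bands of class II UMIs per cell (x axes), KO points left of WT points, with 95% Poisson intervals of the summed counts. Kit, Cd34 and Hlf are lowest in the band of 200 or more in KO, H2-DMb1, Ciita and Ctss are highest there in both libraries, and Batf3 and Zbtb46 separate KO from WT in that band.

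Flt3, the cytokine receptor that drives DC development, had no such single direction. Its levels were 67.7, 65.8, 124 and 77.8 CPM in KO and 44.9, 72.2, 38.7 and 125 CPM in WT over the same bands. Irf8, needed by type 1 and plasmacytoid DC lineages, had 97.5, 165, 468 and 303 CPM in KO and 72.8, 250, 344 and 920 CPM in WT. Over all selected cells Irf8 was at 190 CPM in KO and 357 CPM in WT, a log2 ratio of -0.91 (-1.01 to -0.81).

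For the class II genes of the rule the levels are descriptions, and the bands were cut on their sum, so ratios within a band are held near 0 by the cut. Over all selected cells Cd74 had 1291 CPM in KO and 2606 CPM in WT, and H2-Aa, H2-Ab1 and H2-Eb1 had 524 to 618 CPM in KO and 951 to 1301 CPM in WT. The median log2 ratio of the 4 genes was -0.98 over all cells. Cd74 made up 42.3% of class II UMIs in KO and 43.0% in WT.

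The class II chain genes sit together on chromosome 17 of GRCm38, H2-Ab1 at chr17:34257689-34269419 and H2-Aa at chr17:34282744-34287823 on opposite strands and H2-Eb1 at chr17:34305867-34316674. Class II promoters carry an X box, bound by the RFX complex, and a Y box, bound by NF-Y, which together recruit CIITA. The windows below run from 250 bases before to 50 bases after the RefSeq gene start (GRCm38.p6), on the strand of the gene. They are shown for 2 genes of the rule with both boxes and for H2-DMb1, a peptide-loading subunit outside it where only the Y box letters matched. Capitals mark matches on either strand to CNNGCAAC, an X box core, and ATTGG, the Y box.
H2-Aa (chr17:34287774-34288073, minus strand): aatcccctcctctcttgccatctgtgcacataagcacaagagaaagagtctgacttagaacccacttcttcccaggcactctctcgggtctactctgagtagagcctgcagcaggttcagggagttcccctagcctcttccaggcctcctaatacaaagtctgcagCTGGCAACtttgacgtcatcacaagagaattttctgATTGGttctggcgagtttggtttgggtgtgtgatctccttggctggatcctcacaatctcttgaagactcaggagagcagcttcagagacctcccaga
H2-Eb1 (chr17:34305617-34305916, plus strand): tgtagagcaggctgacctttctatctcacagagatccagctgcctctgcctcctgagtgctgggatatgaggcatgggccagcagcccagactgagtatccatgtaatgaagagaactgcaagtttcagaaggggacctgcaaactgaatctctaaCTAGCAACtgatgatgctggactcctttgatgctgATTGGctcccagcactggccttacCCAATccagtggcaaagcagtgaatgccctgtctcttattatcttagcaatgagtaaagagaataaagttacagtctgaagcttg
H2-DMb1 (chr17:34152941-34153240, plus strand): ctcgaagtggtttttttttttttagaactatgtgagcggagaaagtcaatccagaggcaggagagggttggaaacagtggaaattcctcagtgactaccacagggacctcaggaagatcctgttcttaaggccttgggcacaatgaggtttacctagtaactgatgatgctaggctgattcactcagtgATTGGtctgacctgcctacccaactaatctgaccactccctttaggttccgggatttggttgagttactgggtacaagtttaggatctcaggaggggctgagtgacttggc
In H2-Aa the X box core ends 28 bases before the Y box and in H2-Eb1 27 bases before it, and H2-DMb1 has the Y box without these X box letters. H2-DMb1 has ctagtaac before its Y box where H2-Eb1 has CTAGCAAC, so the search can miss an X box with other letters. Of 11 class II genes looked for, 8 had a window (H2-Ab1, Cd74 and Ciita did not), and 5 of the 8 held the X box core followed by the Y box within 40 bases on the gene strand, an arrangement found in 0.240% of all 32851 windows. Alone, CNNGCAAC was found in 11.2% and ATTGG in 37.4% of all windows on either strand, so a match to either letter string is common. The longer core CCNNGCAAC, searched first, matched 3 of the 8 genes and 4.84% of all windows, and it was shortened after H2-Aa and H2-Eb1 were seen to lack its first base. The interferon-stimulated response element, found in 3.44% of windows, and GAGGAAG, a PU.1 motif found in 13.6%, matched none of the class II windows.

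Among genes of the class II pathway that the rule did not use, measured genes (at a mean of at least 20 CPM) were called at a 1.5-fold ratio of KO to WT. Over all selected cells, 3.80% of 6771 measured genes were higher and 2.64% lower by that ratio. Of 12 measured pathway genes 0 were higher and 3 lower, with a median log2 ratio of -0.25 against 0.05 for all measured genes. The 3 were Ciita at 18.8 CPM in KO and 36 CPM in WT, Cd83, a maturation marker that stabilises surface class II, at 18.0 and 34.2 CPM in KO and WT, and H2-DMb1 at 106 and 176 CPM in KO and WT. Ciita and Cd83 reached the mean of 20 CPM only through WT, so the count does not support the direction. H2-Ob, the regulatory chain that restrains H2-DM in mouse, was level at 23.8 CPM in KO and 23.5 CPM in WT. At high class II the list was not lower as a whole. In the band of 50 to under 200, 3 of 12 were higher and 0 lower, near the shares of all measured genes (21.2% and 9.69%). The median there was 0.20 for the list and 0.10 for all measured genes. In that of 200 or more 5 of 14 were higher and 1 lower, with a median of 0.26 (18.1% and 14.2%). In cells with 200 or more class II UMIs, Ciita was at 156 CPM in KO and 175 CPM in WT, a log2 ratio of -0.17 with an interval (-0.55 to 0.22) that held 0.

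Clustering of the selected cells alone, with names given only from marker lists, gave 3 DC-like groups. Their cells numbered 53 in KO and 40 in WT, which is 1.08% and 0.851% of filtered KO and WT cells, a difference of 0.224 points (-0.172 to 0.623). By kind the difference was -0.143 points (-0.413 to 0.114) for the type 1-like, 0.274 points (0.0349 to 0.530) for the mature and 0.0936 points (-0.105 to 0.298) for the plasmacytoid DC-like cells. The other clusters held 415 KO and 120 WT cells, 8.42% and 2.55% of filtered KO and WT cells, a difference of 5.87 points (4.98 to 6.77). The clusters come from the same genes that differ between the libraries, so these counts describe the clustering. The finer of 3 clustering resolutions is used here, chosen after the values were seen, because at the coarser setting type 1 DC-like cells shared a cluster with cells carrying S100a8 and Elane, and most mature DC-like cells shared one with macrophage-like cells.

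The conventional DC type 1-like cluster had 16 KO and 22 WT cells, and its name fitted the KO cells less well than the WT cells, as given below. The mature (migratory) DC-like cluster, led by the actin-bundling gene Fscn1, had 24 KO and 10 WT cells. Its name is weak, since a minority of these cells had a Fscn1 UMI, as given below. The plasmacytoid DC-like cluster, led by Ly6d, Cox6a2 and Siglech, had 13 KO and 8 WT cells. No cluster met the marker rule for type 2 DC. Of cells that were not DC-like, monocyte-like clusters held 77 KO and 28 WT cells, lymphoid progenitor-like 49 and 8, stem or multipotent progenitor-like 42 and 6, megakaryocyte-like 31 and 9, neutrophil progenitor-like 26 and 9, macrophage-like 15 and 4 and erythroid-like 14 and 4, KO before WT in each. A small cluster of T, NK or innate lymphoid genes had 2 KO and 6 WT cells, and 159 KO and 46 WT cells stayed unnamed. Likely doublets were 11 of the 26 KO and 3 of the 9 WT neutrophil progenitor-like cells, and 7 of the 31 KO and 4 of the 9 WT megakaryocyte-like cells, and 0 of the 14 KO and 3 of the 4 WT erythroid-like cells.

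**Figure D3:**
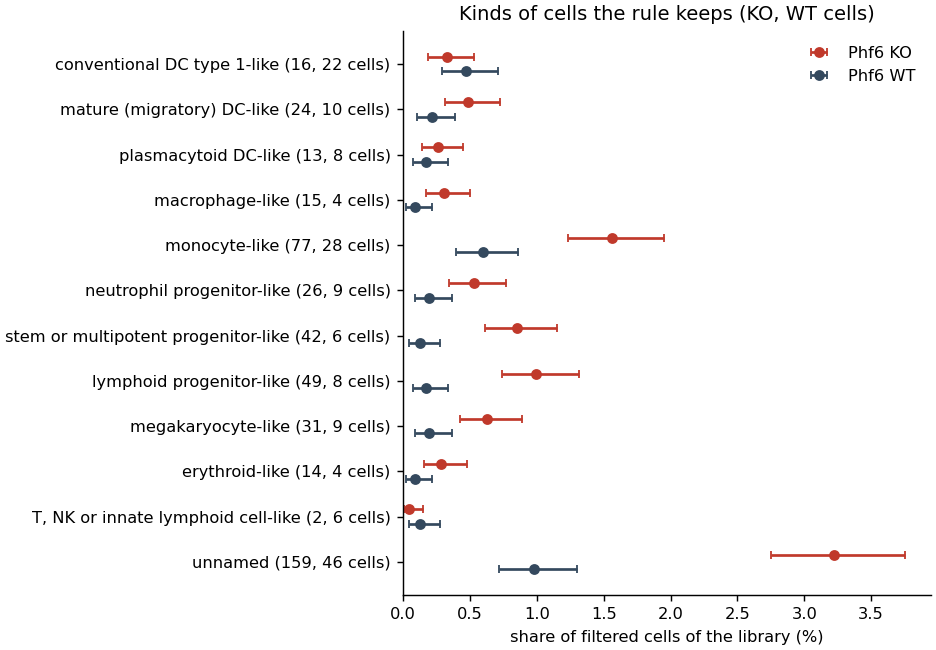
Share of filtered cells (%, x axis) in each kind of cell found among the selected cells (rows), KO points above WT points, with 95% Clopper-Pearson intervals and KO then WT cell counts in the row labels. KO and WT intervals overlap in the 3 DC-like rows. In the lymphoid progenitor, stem or multipotent progenitor, monocyte-like, megakaryocyte-like and unnamed rows the KO points lie to the right with no overlap.

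The rule also took a larger share of KO than of WT cells within gates set on other genes. Of cells in a monocyte gate (F13a1 at 5 UMIs or more, little Elane, Mpo or Pf4), 58 of 460 in KO (12.6%, 9.72 to 16) and 21 of 412 in WT (5.10%, 3.18 to 7.69) met it. In a neutrophil progenitor gate the shares were 1.39% (0.850 to 2.14) of KO cells and 0.478% (0.192 to 0.983) of WT cells. In the megakaryocyte gate they were 2.07% (1.08 to 3.59) of KO cells and 1.48% (0.712 to 2.70) of WT cells. The KO and WT intervals overlapped in the neutrophil progenitor and megakaryocyte gates and not in the monocyte gate.

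Genes of conventional DC type 1 were lower in KO where class II was highest. With no minimum level, all 15 genes of the list had a lower CPM in KO than in WT in cells with 200 or more class II UMIs. They summed to 1337 CPM in KO and 3607 CPM in WT. In cells with 50 to under 200 UMIs, 7 were higher and 6 lower in KO, with sums of 875 CPM in KO and 720 CPM in WT. With at least 50 UMIs the sums were 1075 CPM in KO and 2397 CPM in WT. There 11 of 11 genes that reached a mean of 20 CPM were at least 1.5-fold lower, where 6.71% of 6571 measured genes were that much lower and 14.2% higher. Some of those 11, such as Xcr1, reached that mean through WT alone, so the count does not support the direction. In the whole selection 7 of 7 measured genes were lower with a median of -1.01, beside 2.64% of all measured genes. In the DC-like clusters 11 of 13 were lower with a median of -1.56, beside 8.54% of all measured genes there. Batf3, with 62 UMIs in KO and 136 UMIs in WT, reached the mean over the whole selection only through WT. Genes of the list also helped to name a DC-like cluster, so these counts and medians do not support the direction either. With no minimum level, all 15 genes had a lower CPM in KO over the whole selection, with sums of 480 CPM in KO and 1038 CPM in WT. In the band of 10 to 19, which held 236 of 468 KO cells, 0 of 4 were higher and 1 lower, with a median of 0.30 and sums of 298 CPM in KO and 270 CPM in WT. The list was chosen with earlier results of these data known, so its count is a description. Over all selected cells the median was -0.29 with a class II minimum of 5 UMIs, -0.64 with clusters weighted alike and -0.01 with the 3 ways of entering the selection weighted alike, which raises the weight of the 9 KO and 7 WT cells chosen by Siglech alone.

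Xcr1, the chemokine receptor that marks type 1 DC, gave 3 UMIs in 1 of 39 KO cells with 200 or more class II UMIs, against 79 UMIs in 11 of 28 WT cells of that band. Over all selected cells Xcr1 had 4 UMIs in 2 of 468 KO cells and 80 UMIs in 12 of 160 WT cells. Those WT cells held up to 14 UMIs each, and 3 of them held 48.8% of the WT UMIs. Among the other filtered cells Xcr1 was near its limit in both libraries, with 16 UMIs in 14 of 4462 KO cells and 16 UMIs in 16 of 4542 WT cells. After thinning to 5000 UMIs it was found in 0% of selected KO cells, which allows up to 0.651% of cells with a UMI at that depth and sets no limit on cells that express it, and 3.90% of selected WT cells, against 0% of KO and 0.305% of WT gate cells.

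Batf3, the transcription factor that type 1 DC need, had 34 UMIs in 18 of 39 KO cells and 97 UMIs in 22 of 28 WT cells with 200 or more class II UMIs, which is 49 CPM in KO and 142 CPM in WT. Naaa, a lysosomal amidase, had 99.4 CPM in 39 KO cells and 480 CPM in 28 WT cells of that band. Wdfy4, required for cross-presentation in mouse, had 202 CPM in KO and 641 CPM in WT there. Clec9a, the receptor for actin exposed on dead cells, had 51.9 CPM in KO and 132 CPM in WT, yet it was also found in 24.1% of KO and 18.6% of WT megakaryocyte gate cells after thinning and so did not mark DC alone in these libraries. The endosomal sensor of double-stranded RNA Tlr3 had 11.5 CPM in KO and 61.6 CPM in WT in the same band, from 8 and 42 UMIs in KO and WT.

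**Figure D4:**
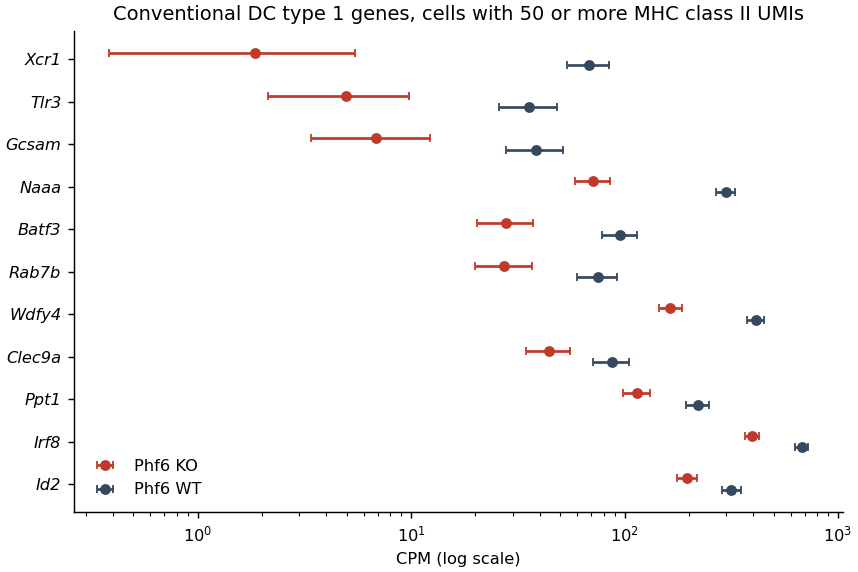
Level (CPM, log x axis) of the 11 measured conventional DC type 1 genes in cells with at least 50 class II UMIs (rows), KO points above WT points, with 95% Poisson intervals of the summed counts of 85 KO and 48 WT cells. Each KO point lies left of its WT point, furthest for Xcr1 at 1.86 CPM in KO and 68.2 CPM in WT.

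The summed type 1 list, leaving out Irf8, Id2 and Clec9a because other cells express them, reached at least 1000 CPM in 10 of 85 KO cells and 14 of 48 WT cells with 50 or more class II UMIs. Its median per cell was 319 CPM in KO, with a range of 0 to 3143 CPM, and 566 CPM in WT, with a range of 0 to 7332 CPM. The WT range reached further up, and 3 cells held 20.2% of these UMIs in KO and 31.0% in WT. In the band of 50 to under 200 UMIs the list had 1 gene higher and 1 lower of 7 measured, with a median of 0.14, where 21.2% of all measured genes were higher and 9.69% lower.

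Among cells of the type 1-like cluster itself, whose defining genes are these, Naaa was at 153 CPM in KO and 527 CPM in WT and Clec9a at 148 and 169 CPM in KO and WT. Cadm1, an adhesion molecule of type 1 DC, had 1 UMI in 16 KO cells and 26 UMIs in 22 WT cells. Siglech went the other way with 34 UMIs in 10 of 16 KO cells and 9 UMIs in 2 of 22 WT cells. Siglech is a gene of the rule, so its values are descriptions. Xcr1 was found in 1 of 16 KO and 9 of 22 WT cells of the cluster. In the cluster the 15 type 1 genes summed to 2514 CPM in KO and 4040 CPM in WT. The 24 plasmacytoid DC genes, which include Siglech, summed to 2798 CPM in KO and 1415 CPM in WT. By its type 1 genes, the type 1 name thus fitted the KO cells less well. The summed class II chains of this cluster were 9079 CPM in KO and 20851 CPM in WT, and 3 of its KO cells had been selected by Siglech alone against 0 in WT.

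Zbtb46 and Cst3, a cystatin gene highly expressed in DC, were also lower in KO at high class II. With 200 or more class II UMIs, Zbtb46 had 20.2 CPM in 39 KO cells and 88.0 CPM in 28 WT cells, and Cst3 had 4553 CPM in KO and 11254 CPM in WT. Flt3 was at 77.8 CPM in KO and 125 CPM in WT, a log2 ratio of -0.68 (-1.20 to -0.17).

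Macrophage genes lay on the other side in the same band. For type 2 DC genes only a count of measured genes and Sirpa are given, which do not show a direction of the list. Of 9 measured type 2 genes, 7 were higher and 1 lower in KO at 200 or more class II UMIs, with a median log2 ratio of 1.18, where 18.1% of 6403 measured genes were higher and 14.2% lower. Sirpa, the inhibitory receptor that marks type 2 DC and macrophages, had 261 CPM in KO and 74.8 CPM in WT. Of 8 measured macrophage genes 7 were higher and 1 lower, with a median of 2.11, and the complement gene C1qa had 844 CPM in 11 of 39 KO cells and 207 CPM in 4 of 28 WT cells. A gene of either list could reach the mean of 20 CPM through KO alone, so these counts do not support the direction. With no minimum level, the 14 macrophage genes summed to 2853 CPM in KO and 785 CPM in WT. In this band 8 KO cells and 1 WT cell were macrophage-like, 14 KO and 8 WT cells mature DC-like and 6 KO and 12 WT cells type 1-like, so the mix of cells moved with these levels. How much of each level came from the mix was not tested.

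The mature DC-like cells carried the highest class II levels, with the 4 chains summing to 40868 CPM in KO and 35868 CPM in WT. Macrophage-like cells were close to that level in WT, with 18999 CPM in 15 KO cells and 35424.5 CPM in 4 WT cells. In the mature DC-like cluster its marker Ccr7, the lymph node homing receptor, was found in only 2 of 24 KO and 1 of 10 WT cells. Fscn1 was found there in 8 of 24 KO and 3 of 10 WT cells, at 160 CPM in KO and 702 CPM in WT. Among all selected cells, 1 cell held 56.8% of the 44 KO Fscn1 UMIs and 1 cell held 89.4% of the 85 WT UMIs. Of Ccl5, another marker of the name, 1 cell held 56.8% of the KO UMIs and 1 cell held 52.8% of the WT UMIs. Cd83 was found in 15 of 24 KO and all 10 WT cells. C1qa was found in 2 of these 24 KO and 3 of these 10 WT cells. The 16 monocyte genes summed to 5252 CPM in KO and 9702 CPM in WT in this cluster, against 3945 CPM in KO and 4620 CPM in WT over all selected cells. The cluster was thus mixed and its name is weak.

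In plasmacytoid DC-like cells Siglech and Ly6d, which help to name them, were at similar levels in KO and WT. Siglech had 826 CPM in 13 KO cells and 848 CPM in 8 WT cells, Ly6d had 1763 CPM in all 13 KO cells and 1755 CPM in 5 of 8 WT cells, and Tcf4 had 2612 CPM in KO and 3655 CPM in WT. Irf7, the interferon regulator that plasmacytoid DC use to make type I interferon, had 233 CPM in 7 of 13 KO cells and 58.0 CPM in 5 of 8 WT cells. The interferon-induced ubiquitin-like gene Isg15 had 226 CPM in 4 of these 13 KO cells and 29.0 CPM in 2 of these 8 WT cells.

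Interferon response genes were higher in selected KO cells. Of 37 measured genes 19 were at least 1.5-fold higher and 0 lower over all selected cells, with a median log2 ratio of 0.63, beside 3.80% of all measured genes higher. Some of the 37, such as Ifit2, reached a mean of 20 CPM only through KO, so the counts here and by band or cluster do not support the direction. The summed level of the list was 4280 CPM in KO and 3125 CPM in WT, and in the other filtered cells it was also higher in KO, at 2735 CPM against 1970 CPM in WT, so the difference was not particular to the selection. In the band of 10 to 19 class II UMIs 12 of 33 measured genes were higher (of all measured genes, 4.82% were higher and 2.81% lower), in that of 20 to 49 20 of 37 (6.74% higher and 5.94% lower), in that of 50 to under 200 31 of 39 (21.2%) and in that of 200 or more 23 of 35 (18.1%), with 0 lower in each band. In the DC-like clusters 10 of 27 were higher and 1 lower, with a median of 0.47, where 10.5% of all measured genes were higher, and in the other clusters 23 of 38 were higher and 0 lower, where 3.37% of all measured genes were higher and 2.19% lower.

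Iigp1, an interferon-induced GTPase of cell-autonomous defence in mouse, had the highest ratio of KO to WT among genes at 50 CPM or more, at 84.3 CPM in 169 of 468 KO cells and 22.4 CPM in 35 of 160 WT cells, a log2 ratio of 1.91 (1.59 to 2.25). It reached 142 CPM in KO and 18.9 CPM in WT in the band of 20 to 49 UMIs, but was 40.3 CPM in KO and 35.2 CPM in WT in that of 200 or more. Isg15 had 57.3 CPM in KO and 18.3 CPM in WT, Ifit2, which binds viral RNA, had 30.3 and 10.2 CPM in KO and WT, and the membrane restriction factor gene Ifitm1 had 126 and 44.1 CPM in KO and WT. Bst2 and Ifitm3 were nearly level, with log2 ratios of 0.03 and 0.16.

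**Figure D5:**
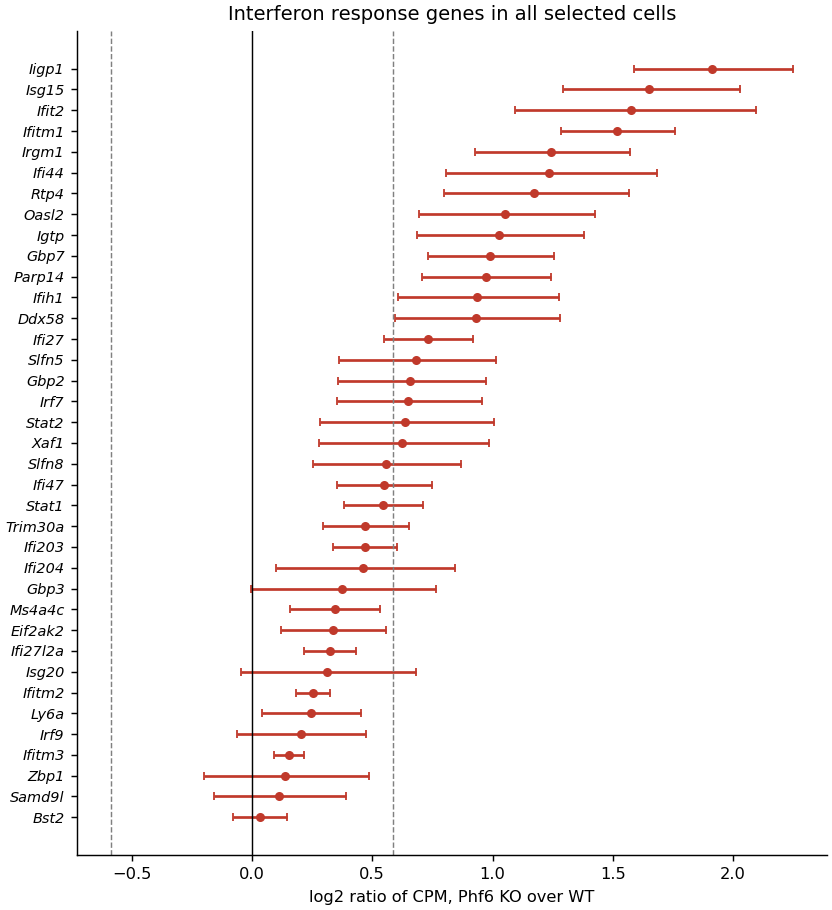
Log2 ratio of CPM, KO over WT, over all selected cells (x axis) for the 37 measured interferon response genes (rows), with 95% counting intervals. The solid line is no difference and the dashed lines are 1.5-fold, past which 19 genes lie to the right, led by Iigp1 at 1.91, and 0 to the left.

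An unnamed cluster led by Gbp6, Iigp1 and Ifit1 held 27 KO and 2 WT cells, and its cells were progenitor-like in other genes. Kit was found in 25 of the 27 KO and both WT cells, Cd34 in 23 of the 27 KO and both WT cells, and Ciita in 8 of the 27 KO and 0 of the 2 WT cells. Iigp1 had 924 CPM in these 27 KO cells, which held 338 of the 881 KO UMIs of the gene. Without the matching cluster at the coarser resolution (24 KO cells and 1 WT cell), 13 of 35 measured genes were higher and 0 lower over all selected cells, with a median of 0.48 in place of 0.63. Weighting alike the clusters with at least 10 cells in each library, which also drops 3 other clusters, gave a median of 0.23.

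The genes with the highest ratios of KO to WT, after Iigp1, were Nxph1, a neurexin ligand gene, at 132 CPM in KO and 41.2 CPM in WT (log2 ratio 1.68, 1.44 to 1.93), Commd10 at 84.8 CPM in KO and 29.5 CPM in WT (1.52), Ifitm1 (1.52), Gna14, a G protein alpha subunit gene (1.33), Abhd17b, a depalmitoylase gene (1.29), Pcdh7, a protocadherin gene (1.16), and Mdga1 (1.14). Dntt, the polymerase that adds bases at antigen receptor joints, followed at 83.8 CPM in KO and 40.7 CPM in WT (1.04), then Ikzf2 (1.02), Gbp7 (0.99) and Mir99ahg (0.99). Commd10 was spread over 328 of 468 KO cells and 68 of 160 WT cells, whereas 3 cells held 79.5% of the WT Dntt UMIs. Without the 3 highest cells of each library, which held 36.9% of KO and 79.5% of WT Dntt UMIs, the log2 ratio was 2.66. That rise follows from the uneven removal and does not support the direction. Thinned to 5000 UMIs, Dntt was found in 15% of selected KO cells and 6.49% of selected WT cells, against 0.547% and 0.152% of KO and WT gate cells.

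The lowest ratios mixed DC genes with genes of other lineages. S100a9 and S100a8, calprotectin genes of neutrophils, stood at -2.79 and -2.31, but 3 cells held 97.6% of the WT S100a9 UMIs and 95.3% of the WT S100a8 UMIs, and with likely doublets removed their ratios turned to 2.61 and 2.01. Elane, neutrophil elastase, stood at -2.02 and turned to 0.90 in the same way. The platelet genes Clec1b, Ppbp, Pf4 and Gp5, at -2.33, -2.12, -1.84 and -1.50, had 55.6% to 94.3% of their WT UMIs in 3 cells each.

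Other genes among the lowest ratios were less concentrated, with 20.5% (Ckb) to 46.7% (Fn1) of their WT UMIs in 3 cells. Fn1 was nevertheless found in only 35 KO and 21 WT cells. Plbd1, a lysosomal phospholipase-like gene of DC and myeloid cells, had 29.9 CPM in 81 of 468 KO cells and 154 CPM in 53 of 160 WT cells (log2 ratio -2.36, -2.57 to -2.16), with 25% of its WT UMIs in 3 cells. Naaa was at 25.1 CPM in KO and 101 CPM in WT (-2.02), Fn1, fibronectin, at 23.6 and 78.8 CPM in KO and WT (-1.74), Ckb, a creatine kinase gene, at 37.6 and 120 CPM in KO and WT (-1.67), and Id2, an inhibitor of E proteins needed for type 1 DC, at 43.7 and 116 CPM in KO and WT (-1.41). Without the 3 highest cells of each library Naaa stood at -1.74 and Id2 at -1.49.

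The G2/M genes of cell division differed in opposite directions in the 2 highest bands, whose edges were set after the values were seen. With no minimum level, all 32 G2/M genes had a lower CPM in KO than in WT with 200 or more class II UMIs, with sums of 467 CPM in KO and 2182 CPM in WT. All 32 had a higher CPM in KO with 50 to under 200, with sums of 3135 CPM in KO and 1770 CPM in WT. In these 2 bands joined, 18 were lower and 14 higher in KO, and the sums were close, at 1984 CPM in KO and 2010 CPM in WT. Of the G2/M genes at a mean of 20 CPM or more, 22 of 22 were at least 1.5-fold lower in the highest band (14.2% of all measured genes), a count that genes entered mostly through WT. With 50 to under 200, 20 of 29 were higher and 0 lower (21.2% and 9.69% of all measured genes). With 20 to 49, 15 of 30 were higher and 0 lower (6.74% and 5.94%). Few cells carried these differences: 3 of 39 KO cells and 8 of 28 WT cells with 200 or more UMIs had a G2/M sum of at least 1000 CPM, and 3 cells held 53.1% of these UMIs in KO and 68.1% in WT. With 50 to under 200 UMIs the counts were 12 of 46 KO cells and 6 of 20 WT cells. Likely doublets were 7 of the 39 KO and 3 of the 28 WT cells in the highest band, and without them 16 of 16 measured G2/M genes were lower with a median of -1.85. The G1/S list summed to 852 CPM in KO and 1690 CPM in WT with 200 or more UMIs. With 50 to under 200 it summed to 2151 CPM in KO and 1973 CPM in WT. There 5 of 29 measured G1/S genes were higher and 1 lower (21.2% and 9.69% of all measured genes), with a median of 0.06.

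Stem and multipotent progenitor genes had 3 of 10 measured members higher and 0 lower over all selected cells, with a median log2 ratio of 0.35, where 3.80% of all measured genes were higher and 2.64% lower. Hlf stood at 226 CPM in KO and 130 CPM in WT, Cpa3, a carboxypeptidase gene of early progenitors and mast cells, at 273 and 159 CPM in KO and WT, and Adgrl4, an adhesion receptor gene, at 1140 and 674 CPM in KO and WT. In the band of 10 to 19 UMIs 0 of 10 passed 1.5-fold in either direction, with a median of 0.04, where 4.82% of all measured genes were higher and 2.81% lower. Of 18 measured cytokine receptor genes 3 were higher and 0 lower over all selected cells, beside the same 3.80% and 2.64%: Tgfbr1 at 98.8 CPM in KO and 52.9 CPM in WT, Csf2rb, the shared receptor chain for IL-3 and GM-CSF, at 63.7 and 36.3 CPM in KO and WT, and Tgfbr2 at 102 and 65.7 CPM in KO and WT. Nlrc5, the class I counterpart of Ciita, was the single gene higher among 17 measured class I genes, at 61.3 CPM in KO and 33.6 CPM in WT, and 0 were lower, a share near that of all measured genes. No heat shock, immediate early or Myc target gene passed 1.5-fold over all selected cells, of 10, 15 and 21 measured, counts that are also near the shares of all measured genes.

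Against the other filtered cells of their own library, selected cells shared further genes that the rule did not name. In KO 7.56% of 6771 measured genes were at least 1.5-fold higher in selected cells, and 2.73% that much lower, and in WT 10.2% were higher and 1.80% lower. The complement gene C1qa had 64.0 CPM in selected KO cells against 1.98 CPM in the other KO cells, and 44.6 CPM in selected WT cells against 0.199 CPM in the other WT cells, but came from 20 KO and 9 WT cells. The lectin gene Cd209a had 47.9 CPM against 8.56 CPM in KO and 75.9 CPM against 8.02 CPM in WT, selected cells before other cells. Flt3 had 77.0 CPM against 18.0 CPM in KO and 77.5 CPM against 10.6 CPM in WT, and Mecom, a stem cell transcription factor, had 181 CPM against 39.5 CPM in KO and 167 CPM against 34.3 CPM in WT. The set thus joined DC and macrophage genes with genes of early progenitors, in both libraries.

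B cells were kept out by the Cd79a rule, which bore on the libraries unequally. Of 498 KO cells and 258 WT cells that reached a minimum, 30 KO and 96 WT cells had a Cd79a UMI and 6 KO and 56 WT cells had 50 or more Jchain UMIs. The 13 B cell genes summed to 113 CPM in selected KO cells and 170 CPM in selected WT cells, against 254 CPM and 1702 CPM in the other KO and WT cells, with 4 of the 13 at 0 in each selection. Ighm made up most of it, at 80.3 CPM in KO and 138 CPM in WT, and Ighm was at 160 CPM in the other KO cells and 1601 CPM in the other WT cells. Their part in the shares above was not tested beyond the alternatives on Cd79a and Cd79b given below.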

How the data were processed

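Single-cell 3′ RNA-seq libraries of 1 KO and 1 WT sample were used. Reads were counted by the authors with Cell Ranger against GRCm38 (version 3.0.1 per the submitters' processing notes, 6.0.2 per the file headers), and the deposited values are raw UMI counts per gene and barcode, with no normalization. Everything after that was computed here.

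Cells were filtered on at least 500 genes and at most 10% mitochondrial UMIs. The members of the selection, the gene lists and the comparisons were chosen with earlier results of these data known. UMIs were summed over cells and divided by the summed total to give CPM. Genes whose KO and WT levels averaged 20 CPM or more count as measured, and a ratio past 1.5-fold was called higher or lower. With 1 library per genotype no p-value was computed. Shares carry Clopper-Pearson intervals, differences of shares Newcombe intervals, levels Poisson intervals and ratios conditional binomial intervals, all at 95% and for counting error only. A count of 0 was given the limit of 3 counts. Shares of cells with a UMI were computed after thinning each cell to 5000 UMIs, which left out 7 KO and 6 WT selected cells that were shallower.

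Likely doublets were the highest Scrublet scores (scanpy 1.11.5), 0.8% of barcodes per 1000 barcodes, and were kept except in the stated alternatives. Selected cells were clustered by Leiden (leidenalg 0.10.2) on 1500 variable genes and 20 principal components at resolution 1, with 0.5 and 2 as alternatives; classes in the text are those at resolution 2. Named genes were the genes of the rule, Phf6, Runx1, markers of DC types, up to 4 measured genes of a list by size of ratio, the 12 highest and 12 lowest ratios at a mean of at least 50 CPM, and the 20 genes highest over the other cells. Other genes given by band or cluster, such as Kit, Hlf, Cadm1, Commd10 by cell and Ighm, were chosen after their values were seen. Scaling alternatives used edgeR 4.0.16 TMM factors and medians of ratios. The summing and calling steps were tested on simulated data. Promoters and gene positions are from RefSeq and GRCm38.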

Additional observations from a re-analysis of the deposited data

Results flagged for a closer look

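In 2 kinds of cell the share of filtered cells was lower in KO, against the direction of the selection as a whole. Conventional DC type 1-like cells were 16 in KO and 22 in WT, a ratio of shares of 0.694, and T, NK or innate lymphoid cell-like cells were 2 in KO and 6 in WT, a ratio of 0.318. The type 1 name fitted the KO cells less well than the WT cells, so 0.694 describes the cluster. The difference in direction between these and the other kinds of cell was not tested, since each genotype has 1 library, and the KO and WT counting intervals overlap for both.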

How the results depend on the processing

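No paired analysis was possible because each genotype has 1 library with no replicate number, so neither a block nor the leaving out of a replicate could be run. The difference in share of 6.09 points became 9.07, 2.70 and 0.858 points with class II minimums of 5, 20 and 50 UMIs, and 3.33 points with Cd79a and Cd79b both at 0. The 257 genes higher in KO became 427 and 778 with minimums of 20 and 50 UMIs, 819 with the ways of entry weighted alike, and 94 and 464 with gene minimums of 50 and 10 CPM. The 179 genes lower became 317 with a minimum of 50 UMIs, 307 with Cd79b at 0, 433 with the ways of entry weighted alike, and 80 and 327 with gene minimums of 50 and 10 CPM. In cells with at least 50 class II UMIs, 932 genes higher became 416 and 1481, and 441 lower became 201 and 677, with gene minimums of 50 and 10 CPM, and 911 were lower with Cd79b at 0. The type 1 DC median became -0.29 (minimum of 5 UMIs), -1.83 (Cd79b at 0), -0.0120 (ways of entry alike), -0.64 (clusters alike), -0.67 (bands alike) and -1.40 (10 CPM), and -2.08 in cells with at least 50 class II UMIs without likely doublets. The interferon median became 1.00 with a minimum of 50 UMIs and 0.23 with clusters alike.

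Direction turned in 16 of the other values. With likely doublets removed, the neutrophil progenitor list turned to 0.44 over all selected cells and 0.0226 in those with at least 50 class II UMIs, S100a9 to 2.61, S100a8 to 2.01 and Elane to 0.90. Wdfy4 turned to 0.0083 with a minimum of 5 UMIs and Ppbp to 0.46 with a minimum of 50. With the ways of entry weighted alike, the shared DC list turned to 0.0731, Clec9a to 0.86, Wdfy4 to 0.0522, Irf8 to 0.34 and Ciita to 0.22. With bands weighted alike, Cd74 turned to 0.0713, H2-Aa to 0.0914, H2-Eb1 to 0.28 and Cd83 to 0.12. The bands are cut on a sum that holds Cd74, H2-Aa and H2-Eb1, so their ratios are held near 0 by the cut. The cause of the other turns was not tested. Without likely doublets the G2/M list at 50 to under 200 class II UMIs had 11 of 27 genes higher and 1 lower. The bands weighted alike, the Cd79a limit of 2 UMIs, the alternatives at 50 or more UMIs those by band and the directions with no minimum level were chosen after seeing the data. The bands of 50 or more UMIs hold 20 to 46 cells per library, which limits their depth.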
